A study of Mus musculus with 2 samples.

Results

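Oligodendrocyte precursors of the ventrolateral periaqueductal gray (vlPAG) were described from single-nucleus RNA sequencing of mice fed a normal food diet (NFD) or a high-fat diet (HFD). There were 82 such nuclei among 13822 kept nuclei (0.593%, exact 95% interval 0.472 to 0.736), 44 in the NFD library and 38 in the HFD library. They were chosen by measured expression, on 4 conditions. The UMIs (counted RNA molecules) of Pdgfra, Cspg4, C1ql1, Gpr17, Bmp4 and Enpp6 summed to at least 2. Those of Vcan, Tnr, Lhfpl3 and Bcas1 summed to at least 4, and both sums together made up at least 0.2% of the nucleus's UMIs. The transmitter genes Gad1, Gad2 and Slc17a6 summed to at most 1 UMI. What these genes show is therefore a description of the choice and not a finding.

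Each library pooled vlPAG tissue of 18 wild-type male C57/BL6J mice that started their diet at 8 weeks of age and stayed on it for 7 weeks. The groups share strain, sex, genotype and age, and the labels name no transgene. Since each diet is a single library, no difference between diets was tested, and every interval given is a 95% interval that covers counting error only. Mice, dissection, nucleus preparation and diet cannot be told apart.

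Oligodendrocyte precursors, also called NG2 glia, persist in the adult brain, where they divide and give rise to myelinating oligodendrocytes. They depend on signalling through the receptor PDGFRA, carry the NG2 proteoglycan encoded by Cspg4, and receive synaptic input from neurons through glutamate and GABA receptors. On their way to myelination they pass through a short-lived committed stage marked by Gpr17, Enpp6 and Bmp4, and then lose Pdgfra and Cspg4.

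The precursors made up 0.587% of the 7500 kept nuclei in the NFD library (0.427 to 0.787), and in the HFD library 0.601% of 6322 (0.426 to 0.824). The intervals of the shares overlap almost entirely. Depth differed between the libraries: the median was 2496.5 UMIs per precursor nucleus in the NFD library (1038 to 6721) and 5005 in the HFD library (1471 to 9057), in all 120891 and 188027 UMIs. The rule asks for fixed UMI numbers, so its reach depends on depth. After every kept nucleus was thinned to 2000 UMIs, with shallower nuclei left out, 24 of 6359 NFD nuclei (0.377%) and 20 of 5314 HFD nuclei (0.376%) still qualified. Of the barcodes, 12 occurred in both libraries, and 0 of the members' barcodes were shared.

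Members at a threshold were common for the first sum and for the transmitter genes. The first sum was exactly 2 in 15 NFD and 9 HFD members, while 22 NFD and 13 HFD nuclei failed by having 1 such UMI and met every other condition. The second sum was exactly 4 in 1 NFD and 0 HFD members, and no nucleus failed by a second sum of 3 alone. Of the members, 12 in the NFD and 17 in the HFD library had 1 transmitter UMI, the most the rule allows. The limit on these genes alone kept out 5 NFD and 7 HFD nuclei, and 3 NFD and 9 HFD nuclei failed on the 0.2% share alone.

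The label was checked against genes the rule did not read. Ptprz1, a receptor phosphatase of the precursor surface, and Sox6, a transcription factor that holds precursors undifferentiated, were used together. Meg3, a long noncoding RNA abundant in neurons (GRCm38 chr12:109541001-109571726), was read as a sign of neuronal RNA. In neurons of the same libraries, taken as nuclei with 3 or more Gad1, Gad2 and Slc17a6 UMIs, the median Meg3 level was 12684 CPM (UMIs of the gene per 1e+06 UMIs) in the NFD library and 12205 CPM in the HFD library.

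By Meg3, and by Ptprz1 and Sox6 together, the data went against the label for 6 of the 82 members. They are 2 NFD and 4 HFD nuclei with Meg3 at 5000 CPM or more, a level set after the values were seen. The 2 NFD nuclei had 6740 and 11243 CPM, and the 4 HFD nuclei ran from 8249 to 17776 CPM. The other 76 members reached at most 2697 CPM in the NFD library and 2060 CPM in the HFD library, so no member lay between the groups. Ptprz1 and Sox6 together ran from 0 to 1685 CPM in the 6 nuclei. In the other 76 they ran from 1060 to 12589 CPM in the NFD library, around a median of 5624, and from 2469 to 9779 CPM in the HFD library, around a median of 5045. A single NFD nucleus of the 76, of 2831 UMIs, lay below the highest of the 6. It also went against the label by other genes: it had 3 Ptprz1 UMIs and 0 of Pdgfra, Cspg4, Sox6 and Itga9, and 13 UMIs of general neuron markers (4592 CPM). At 1413 Meg3 CPM it stays among the 76, and where it decides a value the value without it is given.

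**Figure D1:**
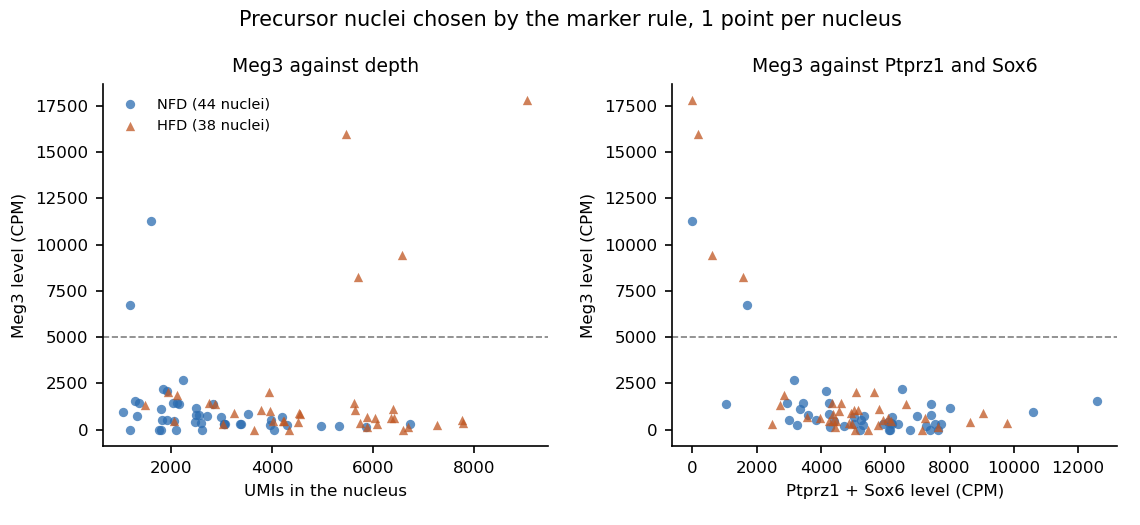
Meg3 level in CPM (vertical axis) of each of the 82 chosen nuclei against its UMIs (left) and against its Ptprz1 and Sox6 level in CPM (right), with NFD nuclei as circles, HFD nuclei as triangles and a dashed line at 5000 CPM. The 6 nuclei above the line have at most 1685 CPM of Ptprz1 and Sox6, and 75 of the 76 below it have more than that.

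These 6 nuclei sat at the edge of the rule. Their first sum was exactly 2 in 5 of them, and 5 had no Pdgfra UMI. The HFD nucleus with the most UMIs of all members (9057) was among them: it held 161 Meg3, 75 Cntnap2 and 48 Kcnip4 UMIs, 2 Enpp6 UMIs, and 0 of Pdgfra, Ptprz1 and Sox6. An NFD nucleus of 1601 UMIs held 18 Meg3 UMIs, 2 of Enpp6 and 0 of Pdgfra, Ptprz1 and Sox6. A list of 9 general neuron markers stood at 2570 CPM in the 6 nuclei, 422 CPM in the other 76 and 2971 CPM in neurons. The 4 HFD nuclei held 14 to 26 UMIs of these markers each, but the 2 NFD nuclei held 0 and 1. The NFD nucleus with 0, of 1187 UMIs, had 2 Cspg4, 2 Ptprz1, 1 Olig2 and 1 Neu4 UMIs. The 6 held 2.31% of the precursors' UMIs in the NFD library but 14.2% in the HFD library, and 76.9% of the HFD precursors' Meg3 UMIs. Many results between diets are therefore given both with all 82 members and with the 76 below 5000 CPM, and others with 1 of these sets. What the 6 nuclei are was not tested.

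The same split was present just outside the rule. Of the nuclei that failed by a first sum of 1, 16 of 22 in the NFD library and 5 of 13 in the HFD library were at 5000 Meg3 CPM or more. These 21 together had 122 CPM of Ptprz1 and 17.5 CPM of the integrin gene Itga9. The 14 below that level had 1776 CPM of Ptprz1 and 980 CPM of Itga9, where the 76 members had 3100 and 795 CPM. The 14 also held 1327 CPM of the neuron markers. All 5 NFD nuclei and 3 of 7 HFD nuclei kept out by the transmitter limit were at 5000 Meg3 CPM or more.

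Markers of most other cell types were at or near 0 in the precursors. Of 6 mature oligodendrocyte markers, Mag and Mal had 1 UMI each, both in the 6 Meg3-rich nuclei, and Mobp, Mog, Ermn and Aspa had 0. Pecam1 was the sole endothelial marker seen, with 0 NFD and 2 HFD UMIs. The list of 9 fibroblast and pericyte markers had 2 NFD and 0 HFD UMIs, and 5 microglial markers had 10 and 6. Blood genes had none. Of the 6 astrocyte markers, with 25 and 28 UMIs in all, Aqp4 and Gja1 were at 0. Slc1a3, a glutamate transporter, had 19 and 24 UMIs, and Ntsr2, Slc7a10 and Agt held the rest. Of the granule neuron markers, Fat2 and Il16 were at 0, Gabra6 had 0 and 1 UMIs, and Etv1 had 21 and 32. Pooled, the astrocyte list was 1.22 log2 units above other nuclei (0.80 to 1.61) and the granule neuron list 1.44 (1.03 to 1.83).

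Pdgfra, Cspg4 and the other genes that chose the members are given first. Pdgfra (chr5:75152292-75198215) had 100 NFD and 117 HFD UMIs, seen in 37 of 44 and 32 of 38 nuclei. Per nucleus its median was 2 UMIs in the NFD library and 3 in the HFD library, and its highest value 10 and 9. Thinned to 1000 UMIs, a depth every member had, 54.5% of NFD (38.8 to 69.6) and 44.7% of HFD precursors (28.6 to 61.7) had a Pdgfra UMI, against 0% of neurons in either library. Without thinning the shares were 84.1% and 84.2%, and 0.122% and 0.275% in neurons, whose median depths were 7520 and 10981 UMIs. No Pdgfra UMI was seen in 7 NFD and 6 HFD members, of which 2 and 3 were among the 6 Meg3-rich nuclei.

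Cspg4 had 39 NFD and 29 HFD UMIs, in 28 and 17 nuclei, and C1ql1, a secreted synapse organizer, had 22 and 15. The stage markers were sparse: Gpr17 had 4 and 12 UMIs, in 4 and 9 nuclei, Enpp6 2 and 5, and Bmp4 none. The genes of the second sum were deeper. Lhfpl3 had 762 and 1155 UMIs and Tnr, the extracellular matrix glycoprotein tenascin-R, 403 and 600, and both were seen in every member. Vcan, the proteoglycan versican, had 223 and 343 UMIs, and Bcas1, which marks early myelinating cells, 76 and 99.

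The transcription factors of the lineage were present but thinly counted. Of 19 on the list, 18 had a UMI and 5 had at least 50 over both libraries, the minimum set for a gene to count as measured. Olig1 had 10 and 11 UMIs, Olig2 4 and 10, and Sox10 19 and 22, so they were seen in 9, 3 and 14 of 44 NFD precursors and in 7, 6 and 14 of 38 HFD precursors. Thinned to 1000 UMIs, Sox10 was seen in 13.6% and 10.5% of precursors, against 0.0612% and 0% of neurons. Sox6, with 291 and 398 UMIs, was seen in 77.3% and 78.9% of precursors at that depth, against 2.51% and 1.79% of neurons. Myt1, a zinc finger factor of the lineage, had 53 and 61 UMIs, and Sox5 164 and 248. Myrf, the factor that switches on myelin genes, had 0 and 1.

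The genes most above other nuclei, leaving out those of the rule, were led by Neu4, Matn4, Gjc3, Scrg1 and Itga9. These are description too, since the choice was made on the same nuclei. Neu4, a sialidase (chr1:94020451-94028334), had 29 NFD and 30 HFD UMIs, and its level was 9.15 log2 units above other nuclei (8.51 to 9.82). The matrix protein gene Matn4 was 7.48 log2 units above (7.02 to 7.92), the connexin gene Gjc3 6.92 (6.65 to 7.18), Scrg1 6.88 and Itga9 6.48 (6.26 to 6.70). Emid1, Eya1, Zcchc24, Calcrl and Vxn followed at 6.04 to 5.23. The guidance ligand gene Sema3d, Ppfibp1, the ferroxidase gene Cp, Col27a1 and Cdh19 closed the 15 at 5.18 to 4.91. The rule for naming them asked that each be above other nuclei in both libraries.

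Set against other glia, the 15 separated into groups. Neu4, Itga9, Emid1, Eya1, Calcrl and Vxn had 0 UMIs in 112 mature oligodendrocytes. With 3 counts allowed for that 0, Itga9 was at least 56.7-fold higher in the precursors and Neu4 at least 15.1-fold. Sema3d and Ppfibp1 were 4.90 (3.65 to 6.54) and 5.24 log2 units (4.0 to 6.88) above mature oligodendrocytes. Gjc3 and Cdh19 were lower than in mature oligodendrocytes, at -0.41 (-0.73 to -0.10) and -0.82 log2 units (-1.19 to -0.45). Without the 6 Meg3-rich nuclei these were -0.27 (-0.59 to 0.04) and -0.67 (-1.05 to -0.31). Cdh19 was level with 341 astrocytes, at 0.02 log2 units. Scrg1, Itga9, Emid1, Zcchc24, Calcrl, Vxn, Ppfibp1 and Cdh19 had 0 UMIs in the 6 Meg3-rich nuclei, out of 29567 UMIs there.

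**Figure D2:**
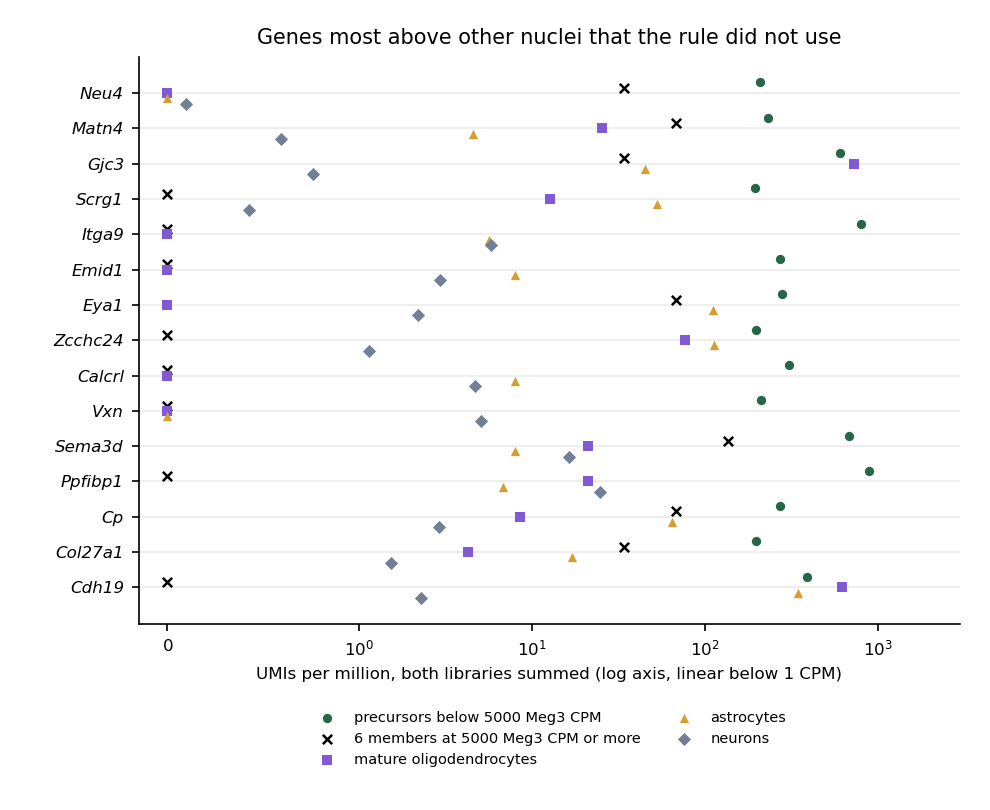
Level of the 15 leading genes in UMIs per 1e+06 UMIs (CPM), on a log axis that is linear below 1, in the 76 precursors below 5000 Meg3 CPM, the 6 members above it, mature oligodendrocytes, astrocytes and neurons, with both libraries summed. Values compare within a gene's row, not between genes, and the precursors stand to the right of every other group except for Gjc3 and Cdh19, where mature oligodendrocytes are higher.

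Other genes known from precursors, from a list of 13 with 10 measured, all had a higher level than other nuclei, by a median of 2.81 log2 units, and so did the 3 that were too sparse to count as measured. Over all 1083 measured genes outside the rule 60.4% were above other nuclei, with a median of 0.20. A gene counts as measured by its UMIs in the precursors, which favours genes that are high there. Pcdh15, a protocadherin (627 and 1045 UMIs), Opcml (575 and 963) and Dscam (441 and 634) were seen in every member. Their excess over other nuclei was smaller, at 1.84, 1.01 and 1.52 log2 units in the 76 nuclei, and in the 6 Meg3-rich nuclei they had 43, 54 and 51 UMIs. Megf11, an adhesion receptor, was 3.94 log2 units above other nuclei in the 76, and Cacng4, an AMPA receptor auxiliary subunit, 3.78.

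Of 16 genes of the extracellular matrix and proteoglycans, 12 (75%) had a higher level than other nuclei, against 60.4% of all 1083 measured genes outside the rule. The 12 include genes too sparse to count as measured, so the shares do not rest on the same minimum. For the 8 that were measured the median was 2.99 log2 units, against 0.20 over the 1083 genes. Ptprz1 stood 4.25 log2 units above in the 76, Xylt1, which starts glycosaminoglycan chains, 3.83, and Chst11, a chondroitin sulfotransferase, 3.33. The other 4 of the 16 were the hyaluronan link protein genes Hapln1, Hapln2 and Hapln4 and the fibronectin gene Fn1, all at 0 UMIs. Other nuclei had 1.74 to 6.44 CPM of them, so a difference was not detectable at this depth. Acan, which encodes aggrecan, had 1 and 3 UMIs.

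For neurotransmitter receptors the precursors held a selection. In the 76 nuclei Grin3a, an NMDA receptor subunit, was 1.70 log2 units above other nuclei, Grik4 0.81, Grm5 0.70 and Gria4 0.23. Grin2b and Gria1 were 4.69 and 3.37 log2 units below other nuclei, with 4 NFD and 3 HFD UMIs for Grin2b. All 4 measured GABA receptor genes were below other nuclei when every member was counted, and pooled the list of 13 was -1.18 log2 units (-1.29 to -1.06) in the 76. Among channels, Kcnd2, an A-type potassium channel, was seen in every member (656 and 1076 UMIs) and was 1.18 log2 units above other nuclei in the 76, and Kcnh8 was 4.29 above.

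Committed nuclei were few. A nucleus was called committed-leaning when its Gpr17, Bmp4 and Enpp6 UMIs outnumbered those of Pdgfra, Cspg4 and C1ql1, a cut along a score and not a cell type. This held for 1 of 44 NFD members (2.27%, 0.0575 to 12) and 3 of 38 HFD members (7.89%, 1.66 to 21.4), with 2 ties in each library. Within 1 UMI of the cut lay 2 NFD and 4 HFD nuclei. The NFD nucleus and 1 of the 3 HFD nuclei were among the 6 with neuronal Meg3 levels. Below that level there were 0 of 42 in the NFD library, which allows a share of up to 7.14%, and 2 of 34 in the HFD library.

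The 2 remaining HFD nuclei differed from each other. The first, of 3941 UMIs, had 3 Enpp6, 1 Gpr17 and 9 Bcas1 UMIs beside 1 Pdgfra UMI. The second, of 4558 UMIs, had 3 Gpr17 UMIs, 1 C1ql1 UMI and 0 of Pdgfra. Neither had an Mbp UMI. Over all 4 committed-leaning nuclei the genes furthest above precursor-leaning nuclei were Efna5 (32 and 6 UMIs, 6.25 log2 units) and Cntn5 (28 and 11 UMIs, 5.18). Of the committed-leaning UMIs, 31 of Efna5 and 27 of Cntn5 were in the HFD library. Values over the 4 nuclei include the 2 Meg3-rich ones, and none is given without them. Meg3 was 3.11 log2 units higher, with 191 and 315 UMIs, and the general neuron markers stood at 1670 against 516 CPM. The list of 17 genes tied to commitment, such as Tns3, Itpr2 and Tcf7l2, was 0.26 log2 units higher (-0.24 to 0.72). With nuclei weighted equally it lay at -0.01.

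RNA of the mitotic genes Top2a, Cenpf and Mki67 was seen in 2 precursors, both of the HFD library. The mitotic genes Top2a (chr11:98992943-99024189) and Cenpf had 0 UMIs among 120891 in the NFD library. In the HFD library they had 18 and 19, all of them in 2 of 38 nuclei, against 0 of 44 nuclei in the NFD library. UMIs of the same nucleus are not separate events, so no lowest fold is given. A difference in the share of such nuclei was not tested. The first of the 2 nuclei, of 6590 UMIs, held 14 Top2a, 14 Cenpf and 4 Mki67 UMIs with 5 of Pdgfra and 0 of Meg3, and the second, of 3234 UMIs, held 4, 5 and 2 with 3 of Pdgfra. No other member had a UMI of these 3 genes. The list of 19 cell cycle genes had 8 NFD UMIs, 7 of them of Ccnd1, and 70 HFD UMIs. Leaving out the nucleus with most of them in each library brought the log2 ratio from 2.49 (1.43 to 3.76) to 1.23. The HFD precursors were the deeper ones, and the part of depth in finding these nuclei was not tested.

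Between the diets, the typical gene was level. Of 1089 genes with at least 50 UMIs, which hold 65.8% of the precursors' UMIs, 559 were higher and 530 lower in the HFD library, with a median log2 ratio of 0.01. In all, 102 genes (9.37%) were at least 1.5-fold higher and 95 (8.72%) at least 1.5-fold lower. A counting interval wholly beyond 0.32 log2 units was found for 24 genes (2.2%) above and 20 (1.84%) below. In the 76 nuclei 954 genes were measured, of which 80 (8.39%) were at least 1.5-fold higher and 75 (7.86%) lower, and the interval was beyond 0.32 log2 units for 14 (1.47%) and 12 (1.26%). These counts follow a size of difference in 2 libraries and are no test.

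Several of the genes most above in the HFD library lost much of their excess when the 6 Meg3-rich nuclei were left out. Meg3 set the cut that chose these nuclei. Its own fall, and that of genes abundant in the same nuclei, therefore follows from the choice. With all members, Grm8 had 4 NFD and 51 HFD UMIs, a log2 ratio of 3.04 (1.59 to 4.96). Kcnip4 followed with 18 and 139 (2.31), Cntnap2 with 37 and 283 (2.30) and Meg3 with 97 and 464 (1.62). Without the 6 nuclei Grm8 had 3 and 5 UMIs, Kcnip4 13 and 22 (0.31, -0.74 to 1.42), Cntnap2 31 and 51 (0.27, -0.40 to 0.96) and Meg3 71 and 107 (0.14, -0.30 to 0.60). Unc5d crossed 0, from 1.79 to -2.26, with 7 and 2 UMIs left. Cdh12 and Lingo2 went from 1.59 and 1.53 to 0.43 and 0.20, with intervals that include 0. Of the Kcnip4 and Cdh12 UMIs left in the NFD library, 7 and 5 were in the nucleus of 2831 UMIs that went against the label, and without it too the ratios were 1.39 (0.04 to 2.98) and 1.17 (-0.11 to 2.64).

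The general neuron markers moved with these genes. They stood at 455 CPM in the NFD and 739 CPM in the HFD precursors, a log2 ratio of 0.70 (0.24 to 1.18), and at -0.20 (-0.75 to 0.35) without the 6 nuclei. Without the NFD nucleus of 2831 UMIs as well, which held 13 of these UMIs, the ratio was 0.16 (-0.43 to 0.76). Cacna2d1, a calcium channel subunit that neurons express, had 9 and 29 UMIs with all members and 7 and 7 without the 6. The Meg3 level left in the 76, 601 CPM in the NFD and 664 CPM in the HFD library, compares with 559 CPM in 337 astrocytes and 700.5 CPM in 108 mature oligodendrocytes of both libraries that were below 5000 CPM themselves. At or above it were 4 of 185 NFD astrocytes and 4 of 64 NFD mature oligodendrocytes, and none in the HFD library.

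Angpt1, Ano3 and Galntl6 stayed far above in the HFD library without the 6 nuclei. Angpt1 (chr15:42424723-42676977), the ligand of the endothelial receptor TIE2, had 6 UMIs in 5 NFD nuclei and 49 UMIs in 18 HFD nuclei, a log2 ratio of 2.39 (1.17 to 3.91). In the 76 it had 6 and 46 UMIs in 5 of 42 and 17 of 34 nuclei, at 2.49 (1.26 to 4.01). With each nucleus weighted equally the ratio was 2.87, and without the richest nucleus of each library 2.70. Its level in precursors was 2.09 log2 units above other nuclei, but the 186 CPM of the 76 was below the 284 CPM of astrocytes. In astrocytes, which also carry it, the ratio was 0.81 (0.42 to 1.2), and in neurons 0.23 (0.07 to 0.39). Mature oligodendrocytes had 0 NFD and 6 HFD UMIs of it, with an interval that starts at 0.28.

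Ano3, of the anoctamin family of membrane proteins, had 7 and 39 UMIs in 6 and 16 of the 76 nuclei, at 2.03 (0.85 to 3.43). Its ratio in neurons was -0.18 (-0.29 to -0.07), and its interval in astrocytes ran from -1.08 to 2.58. Galntl6 had 7 and 33 UMIs, at 1.79 (0.59 to 3.21), but its level in the 76 was -4.14 log2 units relative to other nuclei, and it stood at 980.8 CPM in the 6 Meg3-rich nuclei. In the 76 neither Ano3 nor Galntl6 reached 50 UMIs, so they are not among the counts above for those nuclei.

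Besides Angpt1, the genes furthest to the HFD side in the 76 nuclei, with 50 UMIs there and an interval beyond 0.32 log2 units, were Col11a1, Zbtb16, Prkg2, Mllt3, Grb14, Grik1, Rtl4, Cacna1c and Gpc6. The collagen gene Col11a1 had 11 and 43 UMIs in 10 and 21 nuclei, a log2 ratio of 1.52 (0.54 to 2.62). Zbtb16, a zinc finger repressor, had 12 and 43 UMIs (1.39, 0.44 to 2.45), and the cGMP-dependent kinase gene Prkg2 14 and 46 (1.27, 0.38 to 2.24). Mllt3 and Grb14, an adaptor that binds the insulin receptor, followed at 1.17 and 1.16. Grik1, Rtl4, the calcium channel gene Cacna1c and the glypican gene Gpc6 lay at 1.02, 0.97, 0.96 and 0.86. Zbtb16 was also higher in the other classes, at 0.77 (0.16 to 1.40) in mature oligodendrocytes, 0.90 (0.48 to 1.33) in astrocytes and 0.46 (0.33 to 0.60) in neurons. Cacna1c, Gpc6 and Mllt3 were higher in astrocytes too, at 1.64 (0.77 to 2.61), 0.78 (0.53 to 1.03) and 0.56 (0.18 to 0.96). In neurons these lay at 0.15, 0.26 and 0.27, and in mature oligodendrocytes their intervals include 0. Rtl4 was lower in astrocytes, at -0.75 (-1.34 to -0.18), and Col11a1 in neurons, at -0.11 (-0.20 to -0.02). The ratio of Grik1 was 2.43 (1.02 to 4.16) in mature oligodendrocytes, -1.87 (-3.67 to -0.36) in astrocytes and -0.15 (-0.20 to -0.11) in neurons.

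The genes named on the NFD side were lower in the HFD library with or without the 6 nuclei. Pde1c, a phosphodiesterase of cyclic nucleotides, had 40 UMIs in 21 NFD nuclei and 20 UMIs in 12 HFD nuclei, a log2 ratio of -1.64 (-2.49 to -0.83), and -1.49 in the 76. In astrocytes it lay on the other side, at 1.42 (0.56 to 2.37). Stard9 was at -1.37 (-2.04 to -0.73), with 55 and 33 UMIs. Chd7, a chromatin remodeller known to act in the oligodendrocyte lineage, was at -1.26 (-1.84 to -0.68), with 66 UMIs in 32 NFD nuclei and 43 in 23 HFD nuclei. Spred1, an inhibitor of growth factor signalling to ERK, was at -1.24 (-1.94 to -0.55).

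Kcnip3 (chr2:127456498-127522094), a calcium sensor that binds potassium channels, had 104 UMIs in 33 of 44 NFD nuclei and 69 in 28 of 38 HFD nuclei. This is 860.3 against 367 CPM and a log2 ratio of -1.23 (-1.69 to -0.78), with -0.91 when nuclei were weighted equally and -1.04 in the 76. In astrocytes Kcnip3 was lower too, at -0.98 (-1.64 to -0.34), and in neurons it lay at 0.18 (0.002 to 0.36). Its level in precursors was 4.03 log2 units above other nuclei, and it had 0 UMIs in the 6 Meg3-rich nuclei. Itgav, an integrin subunit, and 9930021J03Rik lay at -1.12 and -1.18. Cspg4, a gene of the rule, was at -1.06 (-1.81 to -0.33) and is given without weight. Of the leading genes, Itga9 (119 and 103 UMIs) was at -0.85 (-1.24 to -0.45) and Ppfibp1 (131 and 116) at -0.81 (-1.19 to -0.44), while Sema3d (65 and 130) was at 0.36 (-0.08 to 0.82).

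**Figure D3:**
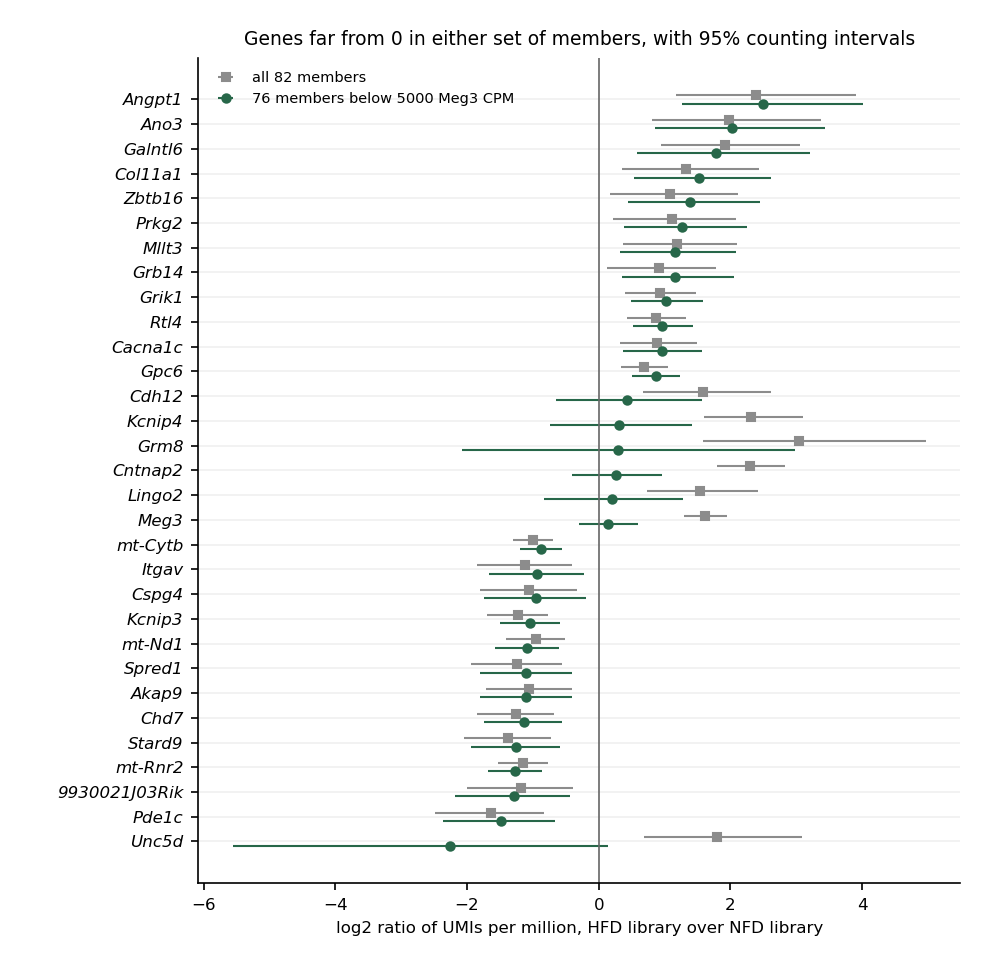
Log2 ratio of CPM, HFD library over NFD library, with 95% counting intervals, for genes far from 0 in either set of nuclei, as squares for all 82 members and circles for the 76 below 5000 Meg3 CPM. Grm8, Kcnip4, Cntnap2, Meg3, Cdh12, Lingo2 and Unc5d lie at 0.43 or lower without the 6 nuclei, and Angpt1, Ano3 and Galntl6 and the genes on the NFD side keep their side of 0.

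Among gene lists with a measured gene, mitochondrially encoded RNA stood furthest from 0 between the libraries. It made up 6138 CPM in the NFD and 3308 CPM in the HFD precursors, a log2 ratio of -0.89 (-1.05 to -0.74), with 0 of 6 measured genes higher and 5 of 6 at least 1.5-fold lower. Over all 1089 measured genes 559 were higher, and 8.72% were at least 1.5-fold lower. In the 76 the mitochondrial ratio was -0.85 (-1.02 to -0.69). The rRNA mt-Rnr2 had 148 and 104 UMIs (-1.15), mt-Cytb 209 and 163 (-1.0), and mt-Nd1, mt-Nd2, mt-Rnr1 and mt-Nd4 lay at -0.96, -0.88, -0.60 and -0.50. Per nucleus the share of mitochondrial UMIs ran from 0 to 1.92% in the NFD library, around a median of 0.514%, and from 0.0626% to 2.47% in the HFD library, around 0.312%, so the groups overlap widely. The pooled ratio was -0.29 (-0.31 to -0.28) in neurons, 0.17 (0.06 to 0.27) in mature oligodendrocytes and 0.57 (0.50 to 0.63) in astrocytes. Whether depth, which differed between the libraries in the same nuclei, plays a part was not tested.

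Glutamate receptor genes leaned to the HFD library. Of 23 genes, 12 were measured, 9 of them higher and 3 lower, and pooled they lay at 0.27 (0.18 to 0.35), with 0.24 (0.16 to 0.33) in the 76, where 9 of 11 were higher. Over all measured genes 559 of 1089 were higher, and 516 of 954 in the 76. Grik1, a kainate receptor subunit, had 41 UMIs in 20 NFD nuclei and 121 in 32 HFD nuclei, at 0.92 (0.40 to 1.47). Gria4, an AMPA receptor subunit, had 215 and 428 UMIs, at 0.36 (0.12 to 0.60), Grin3a 73 and 149, at 0.39 (-0.02 to 0.82), and the metabotropic receptor gene Grm5 186 and 370, at 0.35 (0.10 to 0.62). Gria2, which makes AMPA receptors impermeable to calcium, lay at -0.05 (-0.33 to 0.23). The list was at 0.34 (0.27 to 0.40) in astrocytes, 0.54 (0.40 to 0.67) in mature oligodendrocytes and 0.03 (0.02 to 0.04) in neurons.

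GABA receptor genes did so with all members and less without the 6 nuclei. Pooled they lay at 0.42 (0.20 to 0.65), with 4 of 4 measured genes higher, and at 0.14 (-0.10 to 0.39) in the 76, with 3 of 4. Beside these counts, 559 of all 1089 measured genes were higher, and 516 of 954 in the 76. Gabrb1 went from 0.39 to -0.25, and to 0.0012 (-0.57 to 0.59) without the NFD nucleus of 2831 UMIs, which held 10 of its UMIs. Gabrb2 stayed at 0.91 (0.04 to 1.84), with 16 and 41 UMIs, and Gabrg3 lay at 0.28 with all members and 0.29 in the 76. Calcium channel genes lay at 0.09 (-0.09 to 0.27), where Cacna1c was higher at 0.89 (0.32 to 1.49) and Cacna1e lower at -0.74 (-1.38 to -0.10). Potassium and sodium channel genes lay at 0.01 (-0.09 to 0.12).

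Genes of insulin signalling and lipid handling leaned to the NFD library. All 8 measured genes of 23 were lower in the HFD library, 3 of them at least 1.5-fold, and pooled they lay at -0.38 (-0.58 to -0.19), and at -0.37 (-0.58 to -0.17) in the 76. In the 76 the list had 6 measured genes, all lower. Over all measured genes 530 of 1089 were lower, and 8.72% at least 1.5-fold lower. For the 76 nuclei 438 of 954 were lower. The lipid carrier gene Apoe had 37 UMIs in 23 NFD nuclei and 28 in 16 HFD nuclei, at -1.04 (-1.80 to -0.29). Lrp1, a lipoprotein receptor, had 33 and 28 UMIs, at -0.87 (-1.65 to -0.10), and Igf1r, the receptor of insulin-like growth factor, 40 and 37, at -0.75 (-1.43 to -0.07). Pik3r1 was at -0.55 (-1.13 to 0.03), and Insr, Fto and Rptor lay between -0.29 and -0.12. The leptin receptor gene Lepr had 0 UMIs in both libraries. In astrocytes the list lay at -0.23 (-0.31 to -0.15), in mature oligodendrocytes at -0.17 (-0.39 to 0.06) and in neurons at 0.05 (0.03 to 0.07).

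Matrix and lineage genes shifted with the 6 nuclei. The matrix list was at -0.24 (-0.37 to -0.11) with all members and -0.09 (-0.22 to 0.04) in the 76, with 4 of 8 measured genes higher there. Within it, Xylt1 (258 and 289 UMIs) lay at -0.47 (-0.72 to -0.23) and Cspg5 (54 and 47) at -0.84 (-1.43 to -0.25), with -0.34 and -0.81 in the 76. Csgalnact1, which adds the first galactosamine of chondroitin sulfate, lay on the other side at 0.79 (0.10 to 1.51), with 25 and 67 UMIs. In the 76 it was at 0.97 (0.29 to 1.70). The lineage factors were at -0.18 (-0.32 to -0.03) and 0.01 (-0.14 to 0.16), and growth factor receptors at -0.18 (-0.32 to -0.03) and -0.10 (-0.25 to 0.05).

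Adhesion and guidance genes held more than 5% of the precursors' UMIs and were nearly level as a list, at 0.03 (-0.01 to 0.08) with all members and 0.10 (0.05 to 0.15) in the 76. Single genes lay to both sides. Ncam2, a cell adhesion molecule of the immunoglobulin family, had 221 and 489 UMIs, at 0.51 (0.28 to 0.74). Nrxn3, of the presynaptic neurexins, had 545 and 701, at -0.27 (-0.44 to -0.11), and Sema6d 134 and 148, at -0.49 (-0.84 to -0.15). In the 76 these were 0.64, -0.35 and -0.38.

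**Figure D4:**
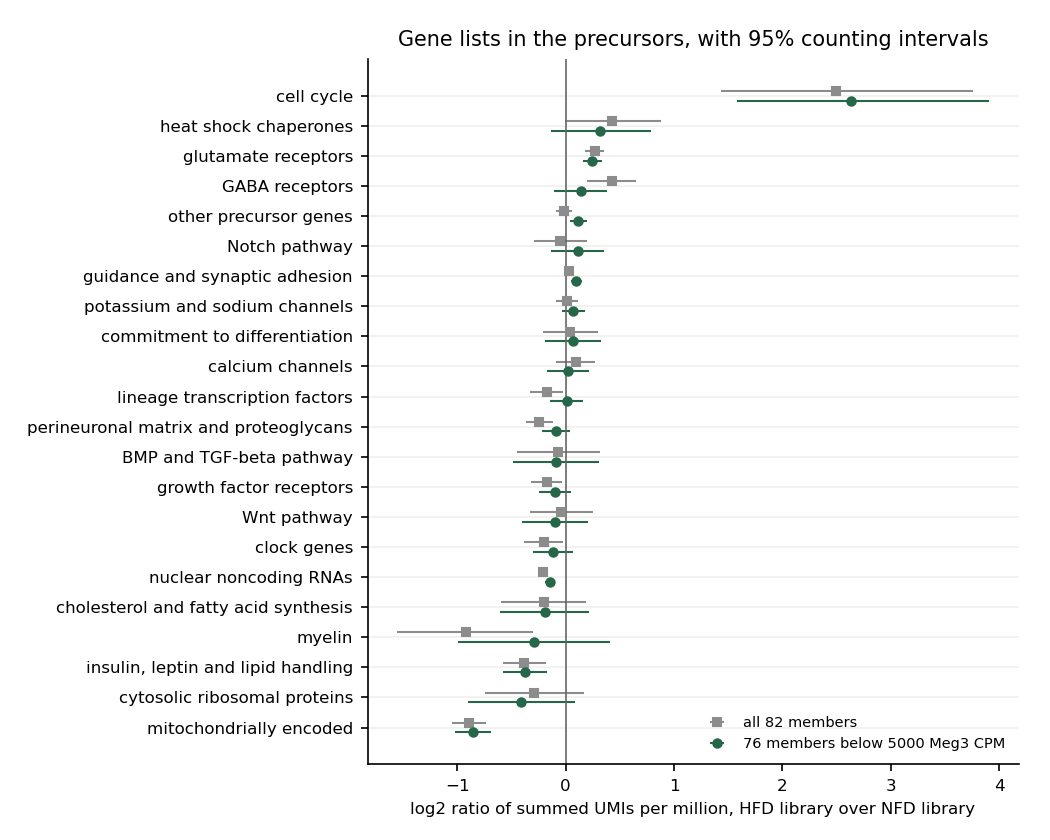
Log2 ratio of each gene list's summed CPM, HFD library over NFD library, with 95% counting intervals, as squares for all 82 members and circles for the 76 below 5000 Meg3 CPM. Mitochondrially encoded genes and the insulin and lipid list lie to the left of 0 and glutamate receptors to the right in both sets, and the cell cycle list stands at 2.49 with all members on 8 and 70 UMIs.

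Other lists were thin or level. Heat shock chaperones had 65 and 136 UMIs and no measured gene, at 0.43 (-0.01 to 0.88), where Hsph1 had 5 and 15 UMIs. The same list lay at 0.61 (0.29 to 0.94) in mature oligodendrocytes, 0.58 (0.36 to 0.79) in astrocytes and 0.48 (0.44 to 0.51) in neurons. Cholesterol and fatty acid synthesis had 97 and 131 UMIs, at -0.20 (-0.59 to 0.19), and ribosomal protein genes 74 and 94, at -0.29 (-0.75 to 0.17). Myelin genes had 50 and 41 UMIs, at -0.92 (-1.56 to -0.30). In the 76 the list lay at -0.29 (-0.99 to 0.41). Clock genes lay at -0.20 (-0.39 to -0.02) and -0.12 (-0.30 to 0.07), mostly through Rora with 336 and 465 UMIs.

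Notch, Wnt, BMP and TGF-beta, and commitment genes lay at -0.05, -0.04, -0.07 and 0.04 with all members and 0.11, -0.10, -0.09 and 0.07 in the 76, with intervals that include 0. Immediate early genes had 5 and 14 UMIs. Among nuclear noncoding RNAs, Malat1 had 6943 and 8865 UMIs, at -0.28 (-0.33 to -0.24), and -0.14 (-0.19 to -0.10) in the 76. The noncoding list as a whole lay at -0.21 (-0.25 to -0.16) in the precursors. It was lower in the other classes too, at -0.41 in mature oligodendrocytes, -0.46 in astrocytes and -0.39 in neurons. Snhg11 and Rian, at 1.04 and 0.86 with all members, lay at -0.18 and -0.05 in the 76. Without the NFD nucleus of 2831 UMIs as well they lay at 0.04 and 0.35, with intervals that include 0.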

How the data were processed

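The authors made the deposited counts (whole UMIs for each gene in each nucleus) from droplet 3' libraries, by alignment to GRCm38 with Cell Ranger, which the file headers give as 4.0.0. Seurat 3.1.1 and bcl2fastq 5.01 are named by the submitters' processing notes. The handling of intronic reads is not given in those sources. A nucleus was kept when it had over 500 UMIs and its mitochondrial UMIs were under 20%, at medians of 4504.5 (NFD) and 7347.5 UMIs (HFD). Samples were grouped by the diet in the labels.

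UMIs were summed per library and class of nuclei and divided by their total to give CPM. Ratios have exact conditional binomial intervals and shares have Clopper-Pearson intervals, at 95%. Intervals and floors (3 counts for a 0) cover counting error only. No p-value was computed, since each diet has 1 library. A gene counted as measured with at least 50 UMIs over both libraries. Mature oligodendrocytes had 4 or more UMIs of Mobp, Mag, Mog, Mal, Ermn and Aspa, and astrocytes 4 or more of Aqp4, Gja1, Slc1a3, Ntsr2, Slc7a10 and Agt, at 0.2% or more of UMIs and with at most 1 transmitter UMI. No doublet caller was run. Members with a transmitter UMI or over 3 times the median depth were left out in an alternative.

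The members and the gene lists were chosen with earlier results of these data known. Genes were named by a rule: the 15 genes most above other nuclei that 25% of members of each library had, the 10 genes furthest to each side between diets with an interval beyond 0.32 log2 units, the same between leanings with at least 30 UMIs, and up to 4 members of a list with the largest ratios or levels. Other list members, the counts beside them and the genes of the 76 nuclei were named after their values were seen. Some named genes are not reported here. Gene positions are from GENCODE M21, of the files' build. Simulated counts with known ratios were used to check the intervals. Python 3.11.15, numpy 2.4.6, scipy 1.17.1, pandas 2.3.3 and matplotlib 3.10.9 were used.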

Additional observations from a re-analysis of the deposited data

How the results depend on the processing

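Counts are small, and depth differed between the libraries, so values rest on few nuclei. Leaving out members at 5000 Meg3 CPM or more, chosen after seeing the data, moved the most. The pooled log2 ratio turned from -0.18 to 0.0088 for lineage factors and went to 0.11 for other precursor genes, -0.087 for the matrix list, -0.29 for myelin, 0.14 for GABA receptors, 0.10 for adhesion and guidance, and -0.14 for noncoding RNAs, and 0 of 42 NFD nuclei were committed-leaning. This follows from the nuclei left out.

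The cause of the other shifts was not tested. With rule sums of 3 and 6 UMIs the shares were 0.387% (NFD) and 0.459% (HFD), no NFD nucleus was committed-leaning (0 of 29, up to 10.3%), myelin lay at -0.26 and noncoding RNAs at -0.14, and 61 genes were at least 1.5-fold lower. Thinned to 2000 UMIs, the shares were 0.377% and 0.376%, with 0 of 24 NFD (up to 12.5%) and 0 of 20 HFD nuclei (up to 15%) committed-leaning. Without likely doublets the shares were 0.427% (NFD) and 0.332% (HFD), mitochondrial RNA lay at -1.16 and noncoding RNAs at -0.12, and 60 genes were higher and 55 lower, of 556 measured. Equal weights put adhesion and guidance at 0.10. A gene minimum of 20 UMIs gave 388 higher and 388 lower of 2710, and a minimum of 100 UMIs 29 and 21 of 451. Of 1083 genes outside the rule, 116 were at least 4-fold above other nuclei, 291 above mature oligodendrocytes and 242 above astrocytes. Of the list ratios under all alternatives, 149 stayed within the interval of the reported value. In 8 lists 19 values lay on the other side of 0, from -0.12 to 0.12, and for 18 of them the reported interval includes 0. Leaving out 1 NFD nucleus that went against the label, chosen after seeing the data, moved the neuron marker ratio of the 76 from -0.20 to 0.16. No paired analysis was possible because no result comes from a test and each diet has 1 library.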
